A study of Saccharomyces cerevisiae with 24 samples.

Results

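Nitrogen catabolite repression in *Saccharomyces cerevisiae* is run by 4 GATA zinc-finger transcription factors, the activators GLN3 and GAT1 and the repressors DAL80 and GZF3, and by URE2, which holds the activators in the cytoplasm. These 5 genes were selected by name and matched by systematic identifier (YER040W, YFL021W, YKR034W, YJL110C and YNL229C), which takes 5 of the 6713 transcripts measured. The rule itself uses no measured value, although the genes were chosen with earlier results of these data known. RNA was sequenced from the strains S288C (labelled BY4742, the laboratory strain), YPS (labelled YPS606), Y55 and UWOP (labelled UWOPS87_2421). Each was grown in synthetic defined medium with no addition or with 20 mM caffeine for 4 h. Each culture was harvested at an OD of 0.4. There were 24 libraries, 3 for each of the 8 combinations of strain and medium, and the labels number the libraries from 25 to 48 without stating whether those of one group came from separate cultures. The p-values therefore measure the spread between these libraries, which may be technical. Each strain is represented by 1 label, and BY4742, used for S288C, carries auxotrophy deletions. URA3 counts, given below, were uneven between libraries of Y55 and of UWOP. Whether all libraries of a strain share 1 genotype was not tested.

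When a good nitrogen source such as glutamine or ammonium is present, Gln3 and Gat1 stay in the cytoplasm and the genes for using poor sources are silent. When nitrogen is poor, or when TOR complex 1 is inhibited, both activators enter the nucleus and bind GATAAG motifs before genes for permeases and catabolic enzymes, and Dal80 and Gzf3 compete with them for the same motifs. Caffeine is known to inhibit TOR complex 1 in yeast. The files measure mRNA, so they hold no information on where a protein was in the cell.

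The genes lie on different chromosomes of the R64 reference genome, and each value is for the whole coding sequence. GLN3 is at chrV:229795-231987 on the plus strand, GAT1 at chrVI:95966-97498 (plus), DAL80 at chrXI:506898-507707 (plus), GZF3 at chrX:209922-211577 (minus) and URE2 at chrXIV:219137-220201 (minus). The 300 bases before each start codon were searched on both strands for GATAAG, the motif that these factors bind. GAT1 had 4 matches, DAL80 and GZF3 had 3 each, and GLN3 and URE2 had none. Over the same window of 6001 protein-coding genes, 14.7% held at least 1 match, 1.63% at least 2 and 0.217% (13 genes) at least 3. The stretches from 300 to 141 bases before the start codon, which hold every match, are printed 5′ to 3′ on the strand of the gene, with the matches in capitals.
GAT1, R64 chrVI:95666-95825, plus strand: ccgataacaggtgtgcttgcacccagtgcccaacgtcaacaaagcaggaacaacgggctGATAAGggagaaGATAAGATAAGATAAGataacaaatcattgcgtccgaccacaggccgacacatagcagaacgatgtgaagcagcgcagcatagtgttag
DAL80, R64 chrXI:506598-506757, plus strand: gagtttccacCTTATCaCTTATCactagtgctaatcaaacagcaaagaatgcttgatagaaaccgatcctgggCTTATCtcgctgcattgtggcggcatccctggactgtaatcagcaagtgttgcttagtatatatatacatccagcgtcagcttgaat
GZF3, R64 chrX:211718-211877, minus strand: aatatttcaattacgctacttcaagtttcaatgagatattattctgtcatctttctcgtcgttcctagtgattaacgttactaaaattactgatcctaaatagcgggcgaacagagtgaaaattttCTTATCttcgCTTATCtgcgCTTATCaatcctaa

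In GAT1 the matches were on the strand of the gene, and the last 3 formed a tandem run in which neighbouring matches shared 1 base. In DAL80 and GZF3 the matches were on the opposite strand and are read as CTTATC. The GZF3 matches were evenly spaced, from 174 to 149 bases before the start codon, and the DAL80 matches lay between 290 and 222 bases before it. A match in these letters is not a test of binding, and the sequence is that of the S288C reference, since the sequences of the other strains were not analysed here.

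**Figure D1:**
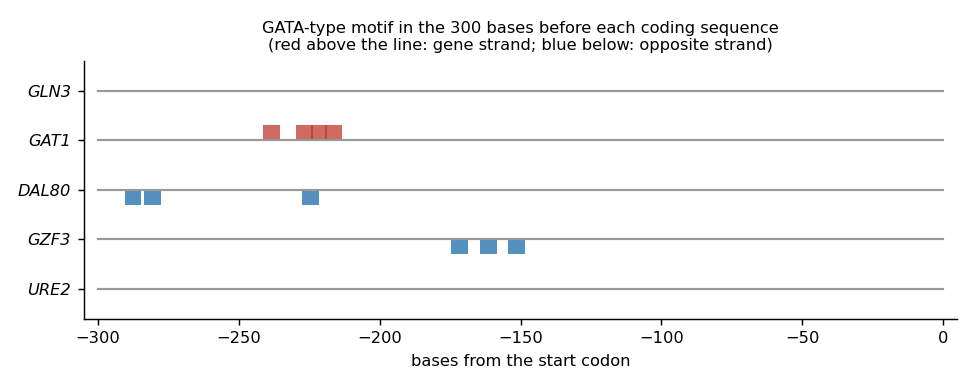
Matches to the motif of the GATA factors in the 300 bases before each start codon (horizontal axis, bases from the start codon). Red boxes above a line are on the strand of the gene and blue boxes below it are on the opposite strand. GAT1 has 4 matches, DAL80 and GZF3 have 3 each, and GLN3 and URE2 have none.

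The libraries held between 8714049 and 29524968 estimated counts (median 21107258), and 6400 transcripts, called genes from here on, had enough counts to be tested. Estimated counts are reads that kallisto assigned to a transcript, and CPM is the count per 1e6 counts of the library after scaling with edgeR's TMM factors. Reads of every strain were assigned to transcripts of the S288C reference. Levels and ratios compared between strains can therefore also reflect sequence differences from that reference, and this was not tested. Between libraries of one group the chi-square over genes was 8.99 to 319 times its degrees of freedom, above what counting alone gives. Library 37 (S288C in caffeine), library 42 (YPS without caffeine) and library 35 (Y55 without caffeine) stood apart from the others of their groups, and calls of these genes that changed without the library of a compared strain are given beside the results. Y55 and UWOP could be told apart by 4 genes only (all of the 2-micron plasmid) without caffeine and in the same 4 in caffeine, with 245 and 124 genes at an unadjusted p under 0.05 by edgeR's quasi-likelihood test, so their values are not those of separate expression profiles. As a check of the labels, S288C libraries held at most 5 counts of LEU2 and at most 2 of LYS2 and of URA3, while HIS3 had 1693 to 4201 counts. The other strains had at least 542 counts of LEU2 and 1571 of LYS2. They had 89 to 2101 counts of HIS3, so low HIS3 counts did not mark S288C and this gene does not serve as a check. URA3 had 13147 to 67845 counts in YPS and was uneven in Y55, with 10 to 41 counts in libraries numbered 25 to 32 and 270 to 2341 in those numbered 33 to 48, and in UWOP, with 1 count in each of the former and 885 to 2114 in the latter. The fit was therefore repeated on libraries 33 to 48 alone, which leaves 2 per group and fewer calls over all genes in every comparison. Its values for the calls of the 5 genes that it lost stand beside them.

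Within a library, where levels can be compared per length as TPM, URE2 was the highest of the 5 genes and DAL80 the lowest in all 24 libraries. URE2 lay between the 72.4 and the 80.0 percentile of all transcripts of a library, and DAL80 between the 3.53 and the 10.1 percentile. GZF3 came second in mean TPM in 7 of the 8 groups. In S288C in caffeine GAT1 came second and GZF3 followed. TPM values were not compared between libraries, because they are shares of a library and a few abundant transcripts can move them all.

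**Figure D2:**
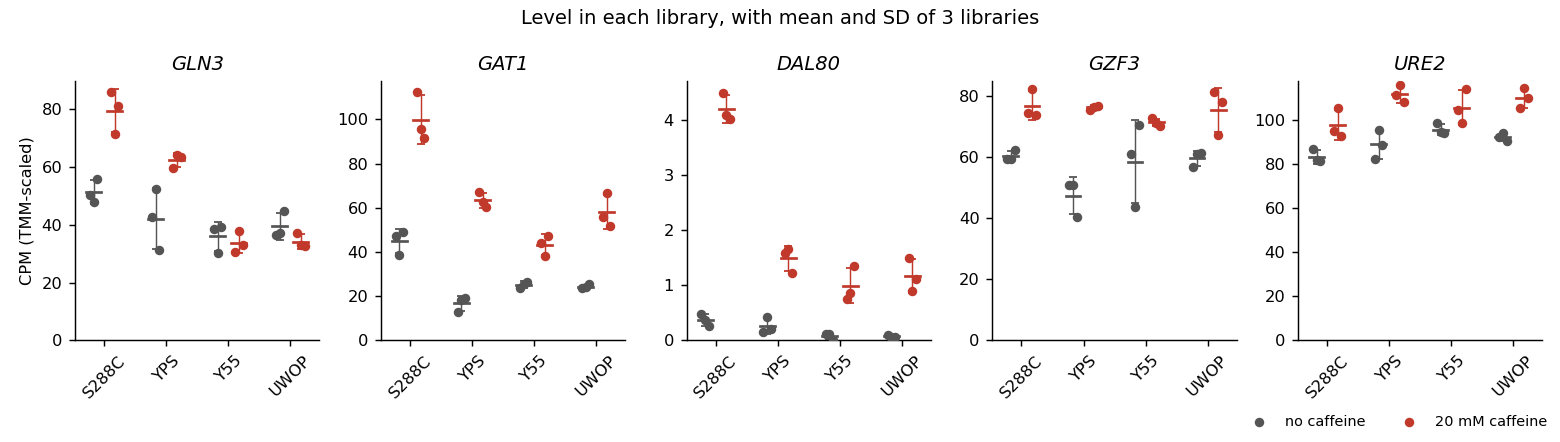
TMM-scaled CPM of the 5 genes (vertical axes, each starting at 0) in the 4 strains without caffeine (grey) and in 20 mM caffeine (red). Points are single libraries and bars are the mean and SD of 3 libraries. DAL80 stays below 5 CPM in every library, and the GAT1 points in caffeine lie above those without caffeine in each strain.

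GAT1 encodes a GATA activator whose own gene is under nitrogen catabolite repression. In S288C its level was 47.0, 38.5 and 48.9 CPM without caffeine and 112, 95.7 and 91.7 CPM in caffeine. The YPS libraries had 12.6, 18.4 and 19.0 CPM without caffeine and 67.1, 62.8 and 60.4 CPM in caffeine. In Y55 the levels were 23.6, 25.3 and 26.5 CPM and then 44.2, 38.0 and 47.3 CPM. In each of these strains all libraries in caffeine were above all libraries without it. UWOP went from 23.6, 24.1 and 25.3 CPM to 55.7, 66.6 and 51.9 CPM, also with no overlap. The log2 fold change in caffeine was 1.16 (SE 0.14, adjusted p = 9.53e-07) in S288C and 1.93 (SE 0.14, adjusted p = 6.81e-09) in YPS. It was 0.79 (SE 0.14, adjusted p = 0.000691) in Y55 and 1.25 (SE 0.14, adjusted p = 3.02e-06) in UWOP. All tests are edgeR's quasi-likelihood test on 3 libraries against 3 in a fit of all 24, with Benjamini-Hochberg adjustment over the 6400 genes of a comparison. The overlapping transcript YFL021C-A had 9.26 to 101 counts, up to 13.3% of the sum of its counts and those of GAT1. With both summed GAT1 was called in each of these comparisons. On libraries 33 to 48 alone the changes were 1.13 in S288C, 1.73 in YPS, 0.71 in Y55 and 1.26 in UWOP, all called (adjusted p between 0.000167 and 0.0462).

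GAT1 also differed between strains in both conditions. Without caffeine, mean levels were 44.8 ± 5.52 CPM (SD, n = 3) in S288C, 25.1 ± 1.49 in Y55, 24.3 ± 0.891 in UWOP and 16.7 ± 3.50 in YPS. Each of the other strains was below S288C, with log2 fold changes of -1.43 in YPS (SE 0.14, adjusted p = 6.01e-08), -0.84 in Y55 (SE 0.14, adjusted p = 7.01e-05) and -0.88 in UWOP (SE 0.14, adjusted p = 3.46e-05). YPS was also below Y55 (log2 fold change -0.59, SE 0.14, adjusted p = 0.00485) and UWOP (-0.55, SE 0.14, adjusted p = 0.00636), comparisons in which 19.6% and 26.5% of all genes passed. Both calls held in the 24 fits that left out 1 library, and both were lost in a fit of only the groups compared (adjusted p = 0.146 and 0.0519) and on libraries 33 to 48 alone (-0.47 and -0.40, adjusted p = 0.144 and 0.159). In caffeine the order changed to 99.9 ± 11.0 CPM in S288C, 63.5 ± 3.38 in YPS, 58.1 ± 7.64 in UWOP and 43.2 ± 4.74 in Y55. YPS was then above Y55 (0.55, SE 0.13, adjusted p = 0.0045) and did not differ from UWOP beyond the spread (0.13, SE 0.13, adjusted p = 0.536), where 28.1% and 23.9% of all genes passed. The difference of Y55 from UWOP itself did not pass (-0.42, SE 0.13). All 3 strains remained below S288C, with log2 fold changes of -0.65 in YPS (adjusted p = 0.000472), -1.21 in Y55 (adjusted p = 2.98e-07) and -0.78 in UWOP (adjusted p = 6.18e-05).

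The caffeine response of GAT1 itself differed between strains. As an interaction term, it was larger in YPS than in S288C by 0.78 on the log2 scale (SE 0.19, adjusted p = 0.0114, edgeR). Interaction terms passed for 12.8% of all genes in that comparison. YPS also exceeded Y55 by 1.15 (SE 0.20, adjusted p = 0.00128), where 5.14% of genes passed. The difference of YPS from UWOP was 0.68 (SE 0.20, adjusted p = 0.0527) and did not pass, but it was called without library 42 (0.79, adjusted p = 0.0215) and in 7 of 33 alternative fits. The responses of Y55 and UWOP did not pass against that of S288C, with differences of -0.37 (SE 0.19, adjusted p = 0.159) and 0.10 (SE 0.19, adjusted p = 0.78). Between Y55 and UWOP the responses differed by -0.47 (SE 0.19), which did not pass. With library totals and no TMM factors, the YPS difference from S288C was 0.64 with an adjusted p of 0.0554. On libraries 33 to 48 alone no GAT1 response differed by the test, with 0.61 for YPS over S288C (adjusted p = 0.27) and 1.02 for YPS over Y55 (adjusted p = 0.131).

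GLN3 encodes the other GATA activator, which URE2 binds and which acts on many of the same promoters as Gat1. In S288C it had 50.4, 47.9 and 56.0 CPM without caffeine and 85.9, 71.3 and 81.2 CPM in caffeine. YPS had 42.7, 52.3 and 31.1 CPM without caffeine, with the lowest value in library 42, and 59.5, 64.1 and 63.3 CPM in caffeine. The libraries with and without caffeine did not overlap in either strain. In Y55, GLN3 was at 38.4, 30.3 and 39.2 CPM and then at 30.5, 37.8 and 33.1 CPM. UWOP libraries had 36.4, 37.1 and 44.9 CPM and then 37.1, 32.8 and 32.6 CPM. Here the libraries with and without caffeine overlapped in both strains.

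In caffeine GLN3 rose by a log2 fold change of 0.63 in S288C (SE 0.15, adjusted p = 0.00121) and of 0.57 in YPS (SE 0.15, adjusted p = 0.00431). The corresponding changes were -0.09 in Y55 (SE 0.15, adjusted p = 0.739) and -0.21 in UWOP (SE 0.15, adjusted p = 0.322). The difference from the S288C response was -0.72 in Y55 (SE 0.21, adjusted p = 0.0143) and -0.84 in UWOP (SE 0.21, adjusted p = 0.00782). Both held in 32 of 33 alternative fits and were lost on libraries 33 to 48 alone (-0.56 and -0.91, adjusted p = 0.284 and 0.141). Interaction terms passed for 29.1% of all genes in Y55 and 22.2% in UWOP. The response of YPS differed from that of UWOP by 0.77 (SE 0.21, adjusted p = 0.0396), with 4.03% of genes passing, and from that of Y55 by 0.66 (SE 0.21, adjusted p = 0.0751). The former had an adjusted p of 0.399 on libraries 33 to 48 alone, and the latter was called without library 35 (0.79, adjusted p = 0.0304). Without library 42 the YPS change was 0.39 (adjusted p = 0.0217), and in a fit of only the groups compared it was 0.57 with an adjusted p of 0.0544. On libraries 33 to 48 alone the change was 0.58 in S288C (adjusted p = 0.0562) and 0.63 in YPS (adjusted p = 0.0719).

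Without caffeine GLN3 was at 51.4 ± 4.17 CPM in S288C, 42.0 ± 10.6 in YPS, 39.5 ± 4.68 in UWOP and 35.9 ± 4.95 in Y55. It was below S288C in Y55 (log2 fold change -0.52, SE 0.15, adjusted p = 0.0099, or -0.61 and 0.0724 on libraries 33 to 48 alone) and, near the threshold, in UWOP (-0.38, SE 0.15, adjusted p = 0.0481, called in 11 of the 24 fits that left out 1 library, and -0.37 with an adjusted p of 0.278 on libraries 33 to 48 alone). The strains lay further apart in caffeine, at 79.5 ± 7.44 CPM in S288C, 62.3 ± 2.44 in YPS, 34.2 ± 2.54 in UWOP and 33.8 ± 3.70 in Y55. GLN3 was then lower than in S288C by -1.24 in Y55 (SE 0.15, adjusted p = 6.9e-07) and by -1.22 in UWOP (SE 0.15, adjusted p = 9.08e-07). For YPS the difference was -0.35 with an adjusted p of 0.0532, which fell under 0.05 in 19 of 33 alternative fits, among them those without library 37 (adjusted p = 0.0343) and without library 42 (adjusted p = 0.0177). YPS was above Y55 by 0.89 (adjusted p = 0.000132) and above UWOP by 0.87 (adjusted p = 0.000188).

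**Figure D3:**
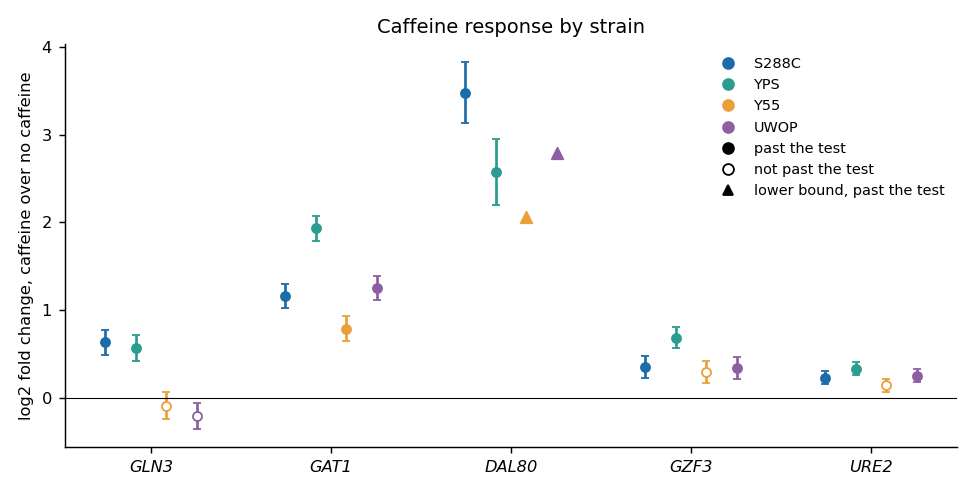
Log2 fold change of caffeine over no caffeine (vertical axis) for each gene and strain, with its SE. Filled circles passed an adjusted p of 0.05 and open circles did not, and triangles are lower bounds for DAL80 in Y55 and UWOP, which were at the floor of 3 counts without caffeine. GAT1 passed in all 4 strains and GLN3 in S288C and YPS. DAL80 passed in all 4 and entered the test through its caffeine libraries.

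The TPM ratio of GAT1 to GLN3 within each library needs no scaling between libraries. It had a median of 1.05 without caffeine and 1.56 in caffeine in S288C, and of 0.421 and 1.16 in YPS. In Y55 the medians were 0.827 and 1.71, and in UWOP 0.770 and 1.90. GAT1 was above GLN3 in all 12 libraries in caffeine and in 3 of the 12 without it, which were 2 of S288C and 1 of Y55. The Y55 library was library 35, where the ratio was 1.0004 and the genes were level. Reads assigned to YFL021C-A were not added to GAT1 in these ratios, so those near 1 could fall on either side. The ratio in caffeine was lowest in YPS (1.16 to 1.34) and highest in UWOP (1.80 to 2.45), and these ranges did not overlap.

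**Figure D4:**
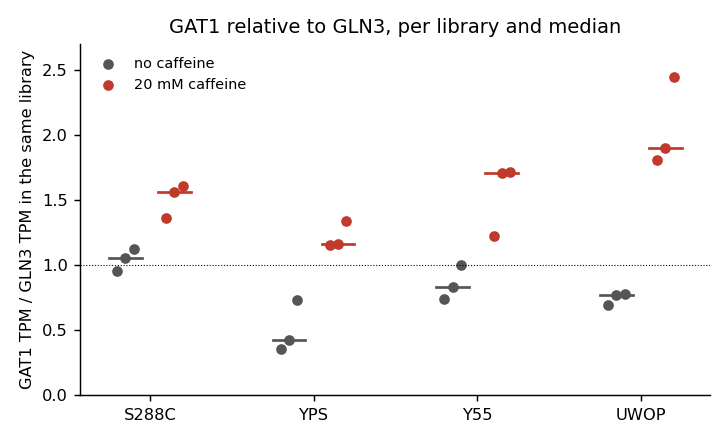
Ratio of GAT1 TPM to GLN3 TPM in the same library (vertical axis, starting at 0) by strain, without caffeine (grey) and in 20 mM caffeine (red). Points are libraries, lines are medians and the dotted line marks a ratio of 1. All 12 points in caffeine lie above 1.

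DAL80 encodes a GATA repressor that is itself transcribed through GATAAG motifs, and it had the lowest counts of the 5 genes. In S288C it had 9.04, 8 and 4 estimated counts without caffeine and 124, 67.4 and 126 in caffeine. YPS libraries had 3.51, 7 and 3.60 counts without caffeine and 43, 38 and 32 in caffeine. In Y55 there were 1.78, 1.79 and 0 counts and then 21, 9 and 43.0. UWOP had 1.80, 1 and 1 counts without caffeine and 36, 16.2 and 29.3 in caffeine. Every library in caffeine was above every library of the same strain without it. DAL80 passed the filter on low counts only through the groups where it was high, so no support is drawn from its calls in caffeine. With no filter on low counts, where it was tested whatever its level, the adjusted p for caffeine was 1.3e-07 in S288C, 2.38e-05 in YPS, 0.000146 in Y55 and 9.2e-06 in UWOP.

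Because DAL80 entered the test through its caffeine libraries, its changes and adjusted p-values are given as description. Mean DAL80 levels went from 0.366 ± 0.110 to 4.19 ± 0.251 CPM in S288C (log2 fold change 3.48, SE 0.35, adjusted p = 1.23e-07). In YPS they went from 0.257 ± 0.143 to 1.49 ± 0.227 CPM (2.58, SE 0.37, adjusted p = 2.31e-05). The control libraries of Y55 and UWOP were at or below 3 counts each, so only a lower bound can be given against a floor of 3 counts per library. DAL80 was at least 4.18-fold higher in caffeine in Y55 (adjusted p = 0.000147, or 0.0782 in a fit of only the groups compared) and at least 6.93-fold higher in UWOP (adjusted p = 9.09e-06). In caffeine, S288C had the most DAL80. The log2 fold change against it was -1.49 in YPS (SE 0.29, adjusted p = 0.00027), -2.05 in Y55 (SE 0.30, adjusted p = 9.97e-06) and -1.83 in UWOP (SE 0.30, adjusted p = 3.15e-05). Differences among the other strains in caffeine did not pass, with 0.55 (SE 0.31, adjusted p = 0.197) for YPS over Y55 and 0.34 (SE 0.30, adjusted p = 0.46) for YPS over UWOP. Without caffeine S288C was at least 1.54-fold above Y55 (adjusted p = 0.0143) and at least 2.18-fold above UWOP (adjusted p = 0.00361), and its difference from YPS did not pass (-0.59, SE 0.44, adjusted p = 0.314). Part of the reads were assigned to the overlapping transcript YKR033C, at 0 to 13.6 counts and up to 64.3% of the sum, and with both summed the difference between Y55 and S288C had an adjusted p of 0.21. That call was also lost without library 25 (adjusted p = 0.0628) and in a fit of only the groups compared (adjusted p = 0.0908). On libraries 33 to 48 alone the calls of S288C over Y55 and over UWOP were both lost (adjusted p = 0.127 and 0.06). The DAL80 response of YPS differed from that of S288C by -0.90 (SE 0.54, adjusted p = 0.289), and for Y55 and UWOP, at the floor without caffeine, this difference could not be measured.

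GZF3 encodes the second GATA repressor, the paralog of DAL80, and its levels moved within a much narrower range. It had 59.5, 59.2 and 62.4 CPM in S288C without caffeine and 74.4, 82.2 and 74.0 CPM in caffeine. YPS libraries went from 51.0, 50.8 and 40.4 CPM to 75.4, 76.6 and 76.9 CPM. In UWOP there were 56.9, 61.1 and 61.2 CPM without caffeine and 81.3, 67.2 and 77.9 CPM in caffeine. These groups did not overlap between conditions. Y55 was spread widely without caffeine, at 61.2, 43.7 and 70.5 CPM with the lowest value in library 35, and its caffeine libraries at 72.7, 71.3 and 70.2 CPM overlapped with that range.

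GZF3 rose in caffeine by a log2 fold change of 0.35 in S288C (SE 0.12, adjusted p = 0.0234), 0.69 in YPS (SE 0.12, adjusted p = 0.000243) and 0.34 in UWOP (SE 0.12, adjusted p = 0.0477). The change in Y55 was 0.29 (SE 0.12, adjusted p = 0.125), and it was 0.11 without library 35 (adjusted p = 0.489) and 0.43 without library 43 (adjusted p = 0.0236). The S288C call was lost without library 37 (0.30, adjusted p = 0.0761), and the UWOP call held in 5 of the 24 fits that left out 1 library. Both were also lost on libraries 33 to 48 alone (0.39 and 0.24, adjusted p = 0.133 and 0.464). No interaction term passed for GZF3. Between strains, GZF3 was lower in YPS than in S288C without caffeine (-0.35, SE 0.12, adjusted p = 0.0318), a call that was lost without library 42 (adjusted p = 0.138) or library 41 (adjusted p = 0.0678). That call was also lost on libraries 33 to 48 alone (-0.44, adjusted p = 0.133). In caffeine the mean levels were 76.9 ± 4.64 CPM in S288C, 76.3 ± 0.756 in YPS, 75.5 ± 7.37 in UWOP and 71.4 ± 1.27 in Y55, and no difference from S288C passed (adjusted p = 0.951, 0.872 and 0.473 in YPS, UWOP and Y55).

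URE2, the cytoplasmic anchor of both activators and the protein behind the [URE3] prion, was the highest of the 5 per length in each library, and its log2 changes in caffeine lay between 0.14 and 0.33. Without caffeine its lowest and highest CPM were 81.5 and 87.2 in S288C, 82.6 and 95.8 in YPS, 94.2 and 98.7 in Y55, and 90.7 and 94.2 in UWOP. In caffeine they were 92.9 and 106 in S288C, 108 and 116 in YPS, 98.7 and 114 in Y55, and 106 and 115 in UWOP. In S288C, YPS and UWOP all libraries in caffeine were above those without it, and in Y55 the lowest library in caffeine and the highest without it were almost equal, at 98.67 and 98.66 CPM. The log2 fold change was 0.23 in S288C (SE 0.07, adjusted p = 0.013), 0.33 in YPS (SE 0.07, adjusted p = 0.00144), 0.14 in Y55 (SE 0.07, adjusted p = 0.207) and 0.25 in UWOP (SE 0.07, adjusted p = 0.0151). The S288C call was lost without library 37 (0.17, adjusted p = 0.0625), and the UWOP call without library 28, 40 or 44 (adjusted p between 0.0546 and 0.0615). The calls in S288C, YPS and UWOP were all lost on libraries 33 to 48 alone (0.31, 0.30 and 0.28, adjusted p = 0.0544, 0.0979 and 0.164).

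URE2 was higher in Y55 than in S288C without caffeine by 0.20 (SE 0.07, adjusted p = 0.0426) and in YPS than in S288C in caffeine by 0.19 (SE 0.07, adjusted p = 0.0362). Both calls were lost with DESeq2 (adjusted p = 0.15 and 0.0625), and they held in 11 and 8 of the 24 fits that left out 1 library. The former was among those lost without library 35 (adjusted p = 0.103). Both calls were also lost on libraries 33 to 48 alone (0.18 and 0.14, adjusted p = 0.295 and 0.383). URE2 in UWOP against S288C in caffeine, at 0.17 (adjusted p = 0.056), was called without library 37 (0.23, adjusted p = 0.0165). The TPM ratio of GLN3 to URE2 in the same library had a median of 0.261 without and 0.386 with caffeine in S288C and of 0.230 and 0.243 in YPS. It was 0.173 and 0.130 in Y55 and 0.176 and 0.132 in UWOP, with the lowest medians in the caffeine libraries of these strains.

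Counted over the 5 genes, 5 were higher in caffeine in S288C, where 27.5% of all tested genes were higher at an adjusted p under 0.05, and 5 in YPS, where 20.5% were. In UWOP 4 were higher (background 14.7%) and in Y55 2 (background 8.64%), and none of the 5 passed in the lower direction. DAL80 is among the genes counted in each strain, and no support is drawn from it. Without DAL80 the genes counted were GLN3, GAT1, GZF3 and URE2 in S288C and in YPS. They were GAT1, GZF3 and URE2 in UWOP, and GAT1 alone in Y55. Of the comparisons with S288C without caffeine, 2 genes passed in YPS (38.1% of all genes in either direction), 3 in UWOP (36.6%) and 4 in Y55 (33.9%). Against S288C in caffeine, 3 passed in UWOP (54.5% of all genes), 3 in YPS (46.5%) and 3 in Y55 (59.1%). DAL80 is among those counted in UWOP and Y55 without caffeine and in each strain in caffeine. No support is drawn from it here either. Not overlapping between conditions and higher in caffeine were 5 genes in S288C (32.5% of all genes), 5 in YPS (25.0%), 4 in UWOP (27.7%) and 3 in Y55 (12.8%), where URE2 is counted on the narrow gap given above. DAL80 is again among them in each strain. The median log2 fold change of all genes in caffeine was between -0.01 and 0.03 in the 4 strains. Comparisons with S288C share its libraries and are not independent of each other.

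The genes that these factors act on were described from lists of nitrogen genes. Of 9 permeases under nitrogen catabolite repression, 8 were higher in caffeine in S288C and none lower, with a median log2 fold change of 1.89. Of all genes, 27.5% were higher and 25.0% lower in caffeine in S288C, and 20.5% and 20.0% in YPS. The shares were 14.7% and 13.0% in UWOP and 8.64% and 5.77% in Y55. MEP2, the high-affinity ammonium permease, rose from 20.4 ± 0.840 to 226 ± 27.4 CPM (log2 fold change 3.47, SE 0.36, adjusted p = 2.17e-07), and the proline permease PUT4 and the urea permease DUR3 rose by 2.45 and 2.28. In YPS 7 were higher and 1 lower (median 0.74), in UWOP 7 and 1 (median 0.88) and in Y55 3 and 1 (median 0.32). The allantoin permease DAL4 had the largest change in each of these strains, 2.59 in YPS, 2.83 in UWOP and 2.80 in Y55. The lower permease was PUT4 in all 3, with log2 fold changes of -0.70 in YPS (adjusted p = 0.0224), -1.64 in UWOP (adjusted p = 7.08e-05) and -1.30 in Y55 (adjusted p = 0.00142). Against the S288C response these were differences of -3.15, -4.09 and -3.75 in YPS, UWOP and Y55 (adjusted p = 9.35e-06, 3.27e-07 and 9.12e-07). Permease promoters held at least 1 GATAAG in 5 of 9 cases, where 14.7% of 6001 protein-coding genes did. In the lists described below, 6 of 13 breakdown enzymes, 1 of 4 ammonium assimilation genes and 3 of 4 activators did. In the TOR arm it was 3 of 15 genes, and no list was tested against the share of all genes.

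Of 13 enzymes that break down allantoin, urea, proline, GABA, arginine or glutamate, 9 were higher in caffeine in S288C, 9 in YPS, 7 in UWOP and 6 in Y55, with median log2 fold changes of 1.40, 0.95, 0.91 and 0.49. The shares of all genes that were higher were 27.5%, 20.5%, 14.7% and 8.64% in the same order. In S288C the largest rises were those of UGA2 (3.35), a GABA pathway dehydrogenase, DAL3 (2.97), of allantoin breakdown, and PUT1 (2.83), proline oxidase. The allantoinase DAL1 led in the other strains, with 3.03 in YPS, 3.01 in UWOP and 2.36 in Y55. One enzyme was lower, the urea amidolyase DUR1,2 in YPS (-0.55, adjusted p = 0.0299). Of 4 genes of ammonium assimilation, 4 were higher in S288C, 3 in YPS, 3 in UWOP and 1 in Y55, and GLN1, the glutamine synthetase, was among them in every strain (log2 fold change 1.32, 0.91, 0.82 and 0.54).

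Among 4 pathway-specific activators, UGA3, the activator of the GABA genes, rose in all 4 strains, by 1.13 in S288C, 1.74 in YPS, 0.94 in UWOP and 0.55 in Y55. PUT3, the proline pathway activator, was lower in S288C (-0.46, adjusted p = 0.000889), and DAL82 was higher in S288C (0.48, adjusted p = 0.00197) and in YPS (0.41, adjusted p = 0.00909). Of 15 genes of TOR complex 1 and its phosphatase arm, 7 were higher and 2 lower in S288C, 2 and 4 in YPS, 2 and 2 in UWOP and 0 and 4 in Y55. Over all genes the shares higher and lower were 27.5% and 25.0% in S288C and 20.5% and 20.0% in YPS. They were 14.7% and 13.0% in UWOP and 8.64% and 5.77% in Y55, and the list was not tested against them. LST8, a subunit of the complex, rose in S288C by 1.03 (SE 0.11, adjusted p = 4.15e-07). CDC55, a regulatory subunit of protein phosphatase 2A, was lower in each strain, by -0.59 in S288C, -0.82 in YPS, -0.69 in UWOP and -0.53 in Y55.

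**Figure D5:**
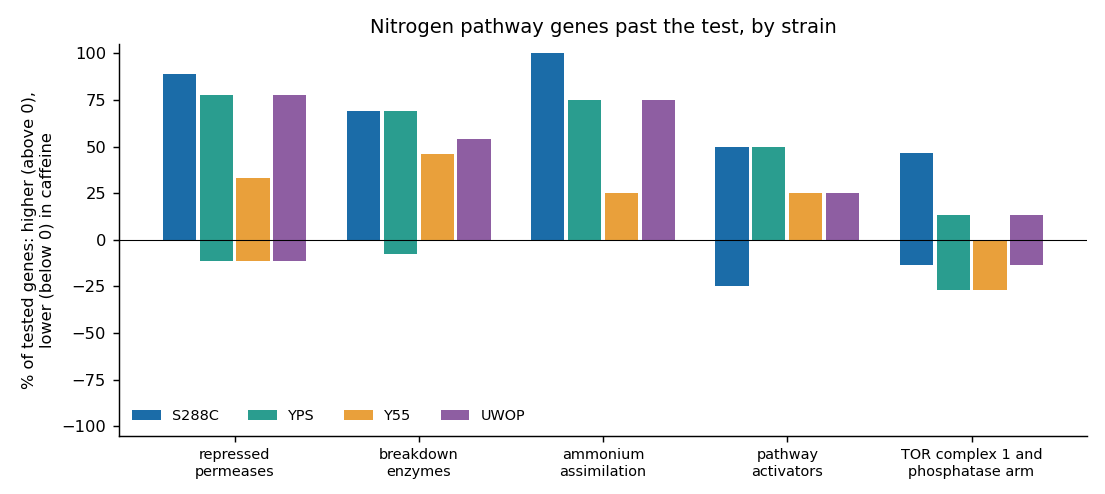
Share of the tested genes of each list (vertical axis, percent) that were higher (bars above 0) or lower (bars below 0) in caffeine at an adjusted p of 0.05, by strain. The lists hold 9 permeases, 13 breakdown enzymes, 4 ammonium assimilation genes, 4 activators and 15 genes of the TOR arm. Y55 has 3 of 9 permeases higher against 7 or 8 in the other strains, and it also has the lowest share over all genes, 8.64% against 27.5% in S288C, 20.5% in YPS and 14.7% in UWOP. Bars count calls within each strain, and between Y55 and UWOP 0 of all genes had a caffeine response that differed by the test.

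Across the 24 libraries, log2 CPM of GAT1 and DAL80 correlated with a Pearson's r of 0.865 and GAT1 and GZF3 with 0.774, while GLN3 and URE2 had an r of -0.057. These libraries share strain and caffeine groups, so the values describe the pattern and are not tests. DAL80 had at most 9.04 counts in any library without caffeine. Its log2 CPM there depends in part on the small count added before taking logs, which limits each r of DAL80. Of 5406 genes that averaged 10 CPM or more, those with the pattern most like GAT1 were DCN1 (r 0.969), UGA3 (0.958) and BIO3 (0.955). The nearest to DAL80 were GTB1 (0.954), SIA1 (0.943) and BAT2 (0.943), to GLN3 SRF1 (0.950), YMD8 (0.924) and ECM32 (0.913), to GZF3 YBL071C (0.917), POP1 (0.913) and YEL1 (0.913), and to URE2 KDX1 (0.908), AIM33 (0.893) and KTR6 (0.889).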

How the data were processed

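The authors trimmed 75-base single-end reads of stranded mRNA libraries with Trimmomatic 0.36, pseudo-aligned them with kallisto 0.44.0 (fragment length 130, SD 70, no strand option stated) to transcripts of R64, per the submitters' processing notes and the study's methods, and deposited estimated counts, TPM and effective lengths of 6713 transcripts per library. Because no strand option was stated, reads of overlapping genes cannot be told apart. The deposited TPM values, estimated counts divided by effective length and scaled to one total per library, were used only for comparisons within a library. The authors also deposited DESeq2 tables of their own comparisons, with fold changes and p-values, which were not used.

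Estimated counts were rounded and fitted in R 4.3.3 with edgeR 4.0.16, which uses limma 3.58.1 (TMM factors, edgeR's filter on low counts, 1 coefficient for each of the 8 groups, quasi-likelihood test, Benjamini-Hochberg adjustment, threshold 0.05). The SE is the log2 fold change divided by the square root of F. The floor was 3 counts: a group with no library above it was given only as a bound. Intervals for counting error are not given, since libraries differed by more than that. The smallest p of an exact permutation test of 3 against 3 libraries is 0.1. Alternatives were DESeq2 1.42.0, RLE size factors, no filter, offsets from effective lengths, only the groups compared, leaving out each library, and, chosen after seeing the data, library totals without TMM factors, sums with overlapping transcripts, sets of 8 library numbers as a block, libraries 33 to 48 alone, and the same settings for GLN3, GAT1 and DAL80 in YPS against Y55 and UWOP. Promoter windows were read from the RefSeq R64 genome, and 6026 identifiers matched its gene table. Named were the 5 genes, up to 3 genes per list with the largest change among those past the test, and the 3 genes nearest in pattern to each. DAL82, PUT3 and PUT4 were also named where counts were small. The 5 genes and the lists were chosen with earlier results of these data known.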

Additional observations from a re-analysis of the deposited data

Results flagged for a closer look

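There were 5 caffeine responses that differed between strains by the interaction test of edgeR. The response of GAT1 was larger in YPS than in S288C by 0.78 (adjusted p = 0.0114) and larger in YPS than in Y55 by 1.15 (adjusted p = 0.00128). The response of GLN3 was smaller than that of S288C in Y55, by a difference of -0.72 (adjusted p = 0.0143), and in UWOP, by -0.84 (adjusted p = 0.00782). The response of GLN3 in YPS exceeded that in UWOP by 0.77 (adjusted p = 0.0396), a call that held in 15 of the 24 fits that left out 1 library, with adjusted p-values between 0.00945 and 0.101. Values are log2 differences over 12 libraries each. On libraries 33 to 48 alone, with 2 per group, none of the 5 passed (adjusted p between 0.131 and 0.399). Y55 and UWOP hardly differ in these data, so their differences from S288C are not separate observations.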

How the results depend on the processing

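Of 44 called results for single genes, those of DAL80 included, 22 were called under every one of the 33 alternatives, and 23 of 33 uncalled results under none. No replicate number is shared between groups, but the library numbers run in 3 sets of 8 (25 to 32, 33 to 40 and 41 to 48) that each hold every strain and medium. Over all genes, deviations from group means correlated between libraries of one set with r from -0.44 to 0.36 (84 pairs, median 0.027). Between sets r ran from -0.52 to 0.62 (168 pairs, median -0.019). These values cannot show that the sets were alike, and URA3 in Y55 and UWOP differed between libraries 25 to 32 and the later ones. With these sets as a replicate block, chosen after seeing the data, 4 calls were lost: GZF3 in caffeine in UWOP (0.34, adjusted p = 0.0601), URE2 in Y55 (0.20, adjusted p = 0.0502) and GLN3 in UWOP (-0.38, adjusted p = 0.0642) against S288C without caffeine, and the GLN3 response of YPS against that of UWOP (0.77, adjusted p = 0.0603). On libraries 33 to 48 alone, with 2 per group, the number of the 5 genes called in caffeine was 2 in S288C, 3 in YPS and 2 in UWOP, 1 for each strain against S288C without caffeine, and 0 for each response against that of S288C. Over all genes that fit called between 7 (YPS response against that of Y55, in place of 329) and 2497 (Y55 against S288C in caffeine, in place of 3784). Small values turned in it: GLN3 in caffeine to 0.022 in Y55, the response against that of S288C to 0.044 for GLN3 and -0.012 for URE2 in YPS, to -0.031 for URE2 in UWOP and, at the floor, to 0.063 for DAL80 in Y55. Leaving out 1 library at a time, the number of the 5 genes called ranged from 3 to 5 for caffeine in S288C (3 without library 37), from 2 to 4 for caffeine in UWOP (2 without library 28 or 44), from 1 to 3 for YPS against S288C without caffeine (1 without library 41 or 42) and from 2 to 4 for Y55 against S288C without caffeine (2 without library 25). In a fit of only the groups compared, 1 gene was called for caffeine in Y55 and 2 for Y55 against S288C without caffeine. The same fit called 119 of all genes for caffeine in Y55 in place of 922, 2786 for caffeine in UWOP in place of 1771, 3659 for UWOP against S288C without caffeine in place of 2343 and 1222 for the Y55 response against that of S288C in place of 1860. It called 158 for the YPS response against that of Y55 in place of 329 (817 without library 42) and 417 for that of YPS against UWOP in place of 258 (431 with DESeq2). Without 1 library, caffeine in Y55 called 484 at the lowest (library 47), the YPS response against that of S288C 519 (library 45) to 1292 (library 37), and that of YPS against UWOP 145 (library 30) to 430 (library 42). Library totals with no TMM factors move the median log2 fold change of all genes in caffeine to 0.42 in S288C, 0.25 in YPS, 0.12 for Y55 and 0.22 for UWOP. With them, 4 of the 5 genes were called for caffeine in Y55, 0 for the YPS response against that of S288C and 3 for the Y55 response. Signs of small, uncalled values turned with them: GLN3 in caffeine to 0.037 in Y55 and 0.0098 in UWOP, URE2 in caffeine against S288C to -0.16 in Y55 and -0.063 in UWOP, the URE2 response against that of S288C to -0.029 in YPS and -0.15 in UWOP, and the GAT1 response in UWOP to -0.083. The GZF3 response in UWOP against that of S288C turned to 0.016 with DESeq2 and 0.015 with RLE factors. Other uncalled values changed sign when 1 library was left out. For GZF3 they ranged from -0.23 to 0.093 in Y55 against S288C without caffeine, from -0.047 to 0.040 in YPS and from -0.090 to 0.051 in UWOP against S288C in caffeine, and from -0.27 to 0.055 (Y55) and -0.084 to 0.067 (UWOP) for the response against that of S288C. The response against that of S288C ranged from -0.24 to 0.10 for GLN3 in YPS, from -0.46 to 0.15 for DAL80 in Y55, from -0.047 to 0.079 for URE2 in UWOP and from -0.014 to 0.19 for GAT1 in UWOP. The cause of these changes was not tested. DAL80 without caffeine is limited by its counts.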

Other observations

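Besides GAT1, DAL80 and GZF3, 10 genes had at least 3 GATAAG matches in the 300 bases before the start codon. They were chosen by sequence after the values had been seen, and GUD1 and AIM6 are divergent neighbours that share the motifs. In caffeine, 9 of the 10 were higher in S288C, 7 in YPS, 5 in UWOP and 3 in Y55, and none were lower, with median log2 fold changes of 1.34, 0.81, 0.56 and 0.35. The same test called 27.5%, 20.5%, 14.7% and 8.64% of all genes higher. DAL3, of allantoin breakdown, had the most matches (5) and changed by 2.97 in S288C, 1.91 in YPS, 1.78 in UWOP and 1.27 in Y55. The other gene higher in all 4 strains besides DAL7, also of the allantoin pathway, was CAN1, the arginine permease, with log2 fold changes of 0.53 in S288C, 0.42 in YPS, 0.41 in UWOP and 0.37 in Y55. MOH1 rose by 1.68 in S288C, 2.22 in YPS and 1.71 in UWOP (adjusted p = 0.0532 in Y55), while AIM6 had no change that passed in any strain (adjusted p between 0.227 and 0.914).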
